A study of Mus musculus with 9 samples.

Results

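The macrophage and dendritic cell genes described here are 34 genes of the myeloid lineage, picked by symbol from the 54532 genes of a duodenal RNA sequencing count table. They cover markers of macrophages, of dendritic cells and of leukocytes in general, and all 34 symbols were found. Duodenum was taken from 5 mice labelled Pla2g12b mutant (MUT) and 4 labelled wild type (WT), all male C57BL/6 animals of matched age kept on regular chow for 3 months. The labels do not give the mutant allele or say in which cells the mutation acts, although the series title names the substitution C129Y. Pla2g12b encodes a secreted phospholipase A2 family protein without catalytic activity that takes part in loading lipoproteins with lipid.

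Macrophages of the intestinal lamina propria engulf dead cells and bacteria and depend on signals through the CSF1 receptor, and most are renewed from blood monocytes. Conventional dendritic cells depend on the receptor FLT3, sample antigen and carry it to lymph nodes. They fall into a type that cross-presents antigen to CD8+ T cells, marked by XCR1, CLEC9A and BATF3, and a type marked by SIRPA and CD209A. Several genes of the set, such as Ptprc (CD45) and Coro1a, are active in leukocytes of every kind.

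Each library held 16245982 to 17959658 reads in MUT and 16119639 to 24009157 in WT. Pla2g12b was transcribed at 102 to 134 CPM in MUT and 75.6 to 104 CPM in WT, levels that do not check an amino acid change. CPM is the usual depth-normalised count, here on library sizes scaled by TMM, a trimmed mean of ratios between libraries. The epithelial marker Epcam, at 1529 to 1731 CPM in MUT and 1057 to 1307 CPM in WT, was abundant in all 9 libraries. Pancreatic acinar genes summed to 533.5 to 1600 CPM in MUT and 39440 to 82400 CPM in WT, and mitochondrial genes took 5.39% to 7.44% of reads in MUT and 3.80% to 4.06% in WT. Apart from a fit with acinar and immunoglobulin genes removed, neither was tested as a part of the values below. MUT 2 and 3, MUT 4 and 5, WT 1 and 2, and WT 3 and 4 formed close pairs. Within these 4 pairs the biological coefficient of variation lay between 0.037 and 0.0499, while the 12 remaining pairings within a genotype ranged over 0.171 to 0.241. Whether a pair shares an animal or a technical step is not given in the sources used here, so calls are also given with the counts of each pair summed, which leaves 3 MUT and 2 WT units.

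Most of these genes were much lower in MUT duodenum. Of the 34, 27 were called lower, 1 was called higher, 4 were tested without a call and 2, Trem2 and Xcr1, had too few reads to be tested. Among all 15416 genes tested, 17.1% were called lower and 15.4% higher. Calls are at an adjusted p under 0.05 of edgeR's quasi-likelihood test over all genes tested. The median log2 fold change of the 32 tested members was -1.99, and that of all tested genes was 0.01. In a bulk sample, fewer cells of a type and less RNA per cell cannot be told apart.

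Of the 27 lower genes, 26 had a log2 fold change below -1, as did 10.4% of all genes tested. Every MUT library lay below every WT library for 28 of the 34, Xcr1 among them, and above for 1. Among all genes tested these shares were 16.5% and 14.4%. Of the 32 tested members, 26 reached 0.581 CPM before TMM scaling, the level the expression filter asks for in 4 libraries, in at least 4 MUT libraries, and 21 of these were lower. The other 6 (Flt3, Zbtb46, Cd163, Clec9a, Cd209a and Clec10a) reached it in fewer MUT libraries and passed with the help of the WT libraries, so their calls add no support of their own. Without any filter all 6 were still called lower, but that fit used the same counts and adds no support either. After close pairs were summed, edgeR called 26 members lower and 0 higher, against 6.78% and 2.23% of all genes in that fit. Cd163, Clec10a and Itgam lost their calls there (adjusted p = 0.119, 0.097 and 0.089). Of the 26, 4 were among the genes that had passed with the help of WT (Flt3, Zbtb46, Clec9a and Cd209a). Xcr1 could be tested there and was called (adjusted p = 0.027), but it had reached 0.581 CPM in 0 MUT and 3 WT libraries. Neither those 4 calls nor that of Xcr1 add support of their own.

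**Figure D1:**
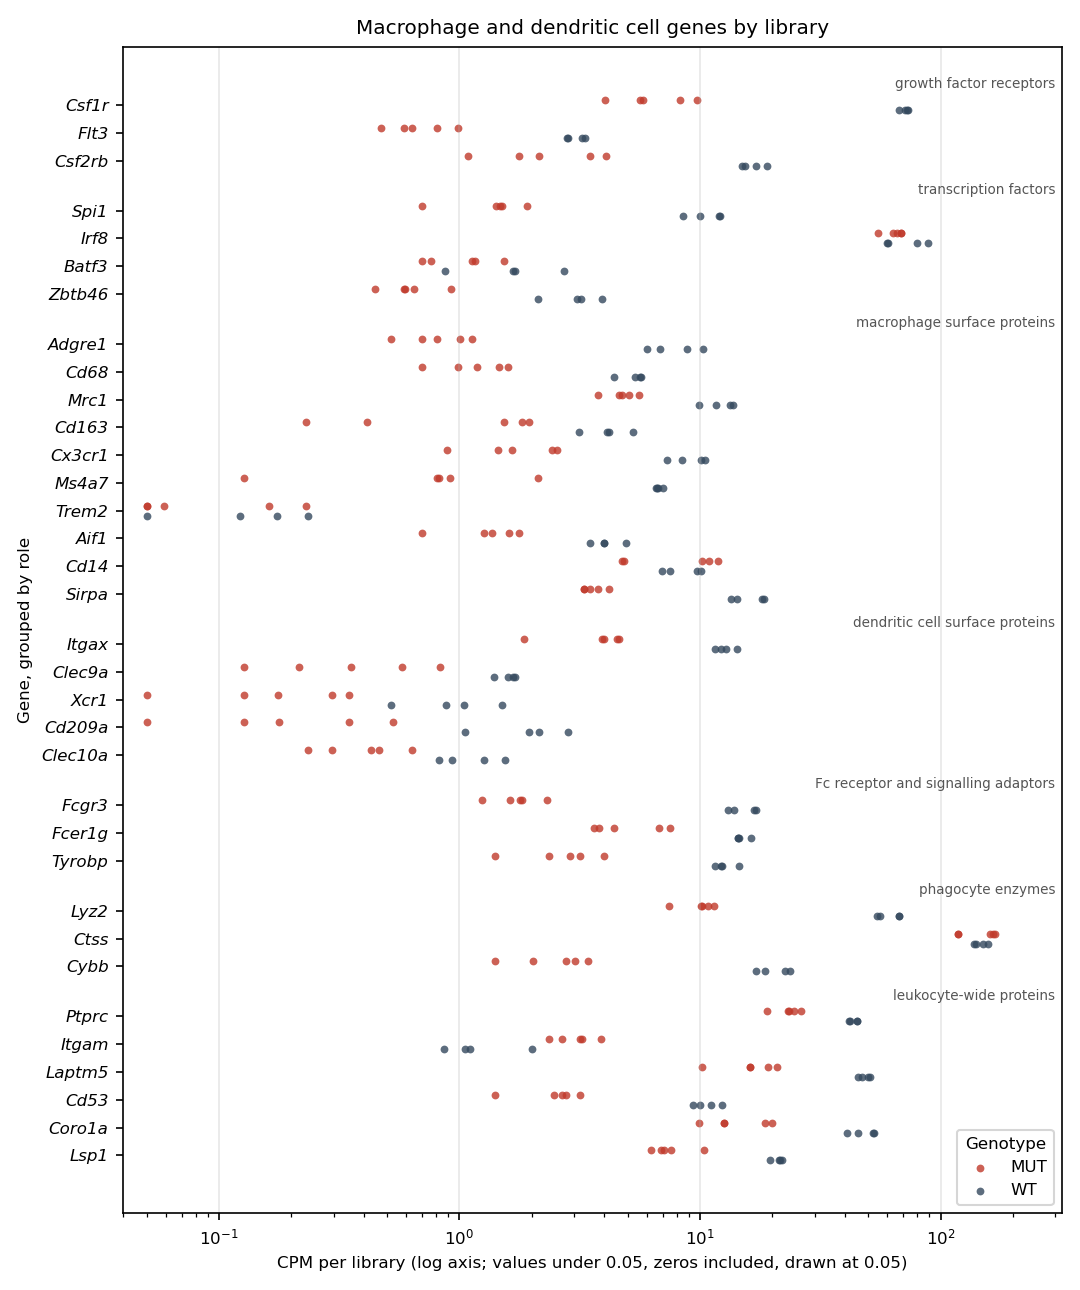
CPM of each of the 34 genes in the 5 MUT and 4 WT libraries, on a log axis, with genes grouped by role and 1 point per library. The MUT points lie below the WT points without overlap for 28 genes, overlap them for Irf8, Batf3, Trem2, Cd14 and Ctss, and lie above them for Itgam.

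Csf1r encodes the receptor for CSF1 and IL-34, the growth factors on which macrophages depend, and it fell further than any other tested member. It stood at 5.79, 8.23, 9.69, 5.65 and 4.04 CPM in MUT 1 to 5, against 72.5, 72.9, 67.0 and 71.5 CPM in WT 1 to 4. The highest MUT library was thus far below the lowest WT library. Its mean was 10.6-fold lower, with a log2 fold change of -3.41 (SE 0.20, edgeR adjusted p = 1.5e-06, and 0.00053 with close pairs summed). Csf1r lies on chromosome 18 from 61105572 to 61132149 (GRCm38, plus strand). Hmgxb3 overlaps it on the other strand and had 1476 MUT and 1529 WT reads. Whether the libraries mark strand is not given in the sources used here, so reads from the overlap may not be separated.

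The other growth factor receptors were lower as well. Flt3, the receptor that dendritic cells and their precursors need, held 0.637, 0.806, 0.473, 0.589 and 0.981 CPM in MUT, against 3.22, 2.84, 3.33 and 2.81 CPM in WT (log2 fold change -2.11, SE 0.25). Csf2rb, the signalling chain shared by the receptors for GM-CSF, IL-3 and IL-5, fell by 2.72 on the log2 scale (SE 0.30). It shares 12.3% of its 50-base transcript stretches with the adjacent Csf2rb2, so its reads may be split between these genes.

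Among the transcription factors, 2 fell and 2 had no call. Spi1 encodes PU.1, which directs the myeloid lineage, and had 11, 28, 24, 25 and 33 reads in MUT, against 294, 210, 162 and 145 in WT, or 0.7004 to 1.91 CPM in MUT and 8.48 to 12.17 CPM in WT. That is a log2 fold change of -2.92 (SE 0.23, edgeR adjusted p = 8e-06), with no overlap between the genotypes. Zbtb46, a factor of conventional dendritic cells, held 0.446, 0.591, 0.650, 0.589 and 0.924 CPM in MUT, against 2.12, 3.19, 3.09 and 3.92 CPM in WT (log2 fold change -2.24, SE 0.28).

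Irf8 is needed for the cross-presenting dendritic cells and is also active in B cells and macrophages. Its level was 55.1, 63.4, 65.7, 68.5 and 68.7 CPM in MUT, against 88.5, 80.1, 60.5 and 59.7 CPM in WT. The MUT libraries lay between the 2 close pairs of WT libraries, apart from MUT 1, which lay below all 4. The log2 fold change was -0.17 (SE 0.12, edgeR adjusted p = 0.32), and without WT 3 and 4 it was -0.40, with a call (adjusted p = 0.022). Batf3, another factor of the cross-presenting type, had only 90 MUT and 129 WT reads in all and a log2 fold change of -0.71 (SE 0.35, adjusted p = 0.14).

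Of the 10 macrophage surface proteins, 8 were lower, Cd14 had no call and Trem2 was not tested. Adgre1 encodes F4/80, the antigen by which mouse macrophages are usually recognised. It held 0.7004, 0.806, 1.12, 1.00 and 0.520 CPM in MUT, against 10.3, 8.81, 6.05 and 6.84 CPM in WT, a log2 fold change of -3.26 (SE 0.25, edgeR adjusted p = 6.2e-06). Cd68, a glycoprotein of phagocyte lysosomes, held 1.47, 0.699, 1.60, 1.18 and 0.981 CPM in MUT, against 5.70, 4.41, 5.62 and 5.38 CPM in WT (log2 fold change -2.16, SE 0.24). Neither gene had an MUT library near its WT range.

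Cx3cr1 encodes the fractalkine receptor carried by resident intestinal macrophages. Its values were 0.892, 1.45, 1.65, 2.53 and 2.42 CPM in MUT, against 10.5, 10.1, 7.28 and 8.42 CPM in WT, a log2 fold change of -2.34 (SE 0.26). Mrc1, the mannose receptor of resident macrophages, changed less, with 4.58, 4.73, 5.55, 3.77 and 5.08 CPM in MUT, against 11.7, 13.7, 13.3 and 9.94 CPM in WT (log2 fold change -1.36, SE 0.15). Sirpa, an inhibitory receptor that binds CD47, fell by 2.16 (SE 0.14), Ms4a7 by 2.79 (SE 0.42) and Aif1, which encodes the actin-binding protein IBA1, by 1.60 (SE 0.25).

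Cd163, the haemoglobin scavenger receptor, divided the MUT libraries. It held 1.53, 1.83 and 1.95 CPM in MUT 1 to 3 but 0.412 and 0.231 CPM in MUT 4 and 5, against 4.20, 5.28, 3.15 and 4.09 CPM in WT 1 to 4. Its log2 fold change was -1.81 (SE 0.47, edgeR adjusted p = 0.012), and leaving out WT 1 and 2 ended its call as well (adjusted p = 0.085). Cd14, a co-receptor for bacterial lipopolysaccharide, showed the same division at a higher level, with 11.9, 10.2 and 10.9 CPM in MUT 1 to 3, 4.83 and 4.73 CPM in MUT 4 and 5, and 6.96 to 10.1 CPM in WT. Over all libraries its log2 fold change was -0.01 (SE 0.29, adjusted p = 0.97). Trem2, a lipid-sensing receptor of macrophages, had 8 reads in all MUT libraries and 10 in all WT libraries, too few to show a difference.

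All 5 dendritic cell surface proteins were lower in every MUT library than in any WT library, most of them at low counts. Among all genes tested this share was 16.5%. Clec9a, Cd209a and Clec10a passed the filter with the help of WT and Xcr1 was not tested, so these genes add no support of their own. Itgax alone reached the filter's level in at least 4 MUT libraries. Itgax (CD11c), the integrin by which dendritic cells are usually gated, held 1.85, 4.52, 3.90, 4.00 and 4.62 CPM in MUT, against 12.2, 12.9, 14.3 and 11.5 CPM in WT (log2 fold change -1.74, SE 0.22, edgeR adjusted p = 0.00014). It shares 8.02% of its 50-base stretches with Itgad, which had 84 MUT and 115 WT reads. Clec9a, a receptor for dead cells, had 2, 4, 14, 6 and 10 reads in MUT, against 39, 24, 27 and 29 in WT (log2 fold change -1.90, SE 0.41). Its marker partner Xcr1, the receptor for the chemokine XCL1, had 2, 0, 5, 3 and 6 reads in MUT, against 37, 9, 17 and 15 in WT.

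Cd209a, a lectin of the other dendritic cell type, had 2, 0, 3, 9 and 6 reads in MUT, against 48, 37, 46 and 18 in WT. Its log2 fold change of -3.05 had a wide error (SE 0.55, edgeR adjusted p = 0.0016), and with the close pair as a random block in limma the adjusted p was 0.057. The galactose-binding lectin Clec10a, also found on macrophages, fell by 1.46 (SE 0.35), and in limma with that block its adjusted p was 0.18. It shares 9.02% of its 50-base stretches with Mgl2.

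The Fc receptor and both signalling adaptors were lower. Fcgr3, which binds IgG, fell by 3.11 on the log2 scale (SE 0.18, edgeR adjusted p = 6.8e-07). It shares 9.58% of its 50-base stretches with Fcgr2b, which had 163 MUT and 551 WT reads. Tyrobp (DAP12), an adaptor of TREM2 and other receptors, held 1.40, 2.37, 2.90, 4.00 and 3.17 CPM in MUT, against 14.6, 12.3, 11.5 and 12.3 CPM in WT (log2 fold change -2.19, SE 0.23). Fcer1g, the common gamma chain of Fc receptors, which NK cells and some T cells also carry, held 3.63, 3.82, 4.37, 6.77 and 7.50 CPM in MUT, against 14.5, 14.4, 16.2 and 14.4 CPM in WT (log2 fold change -1.51, SE 0.21).

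Of the 3 phagocyte enzymes, 2 fell and 1 had no call. Lyz2, the lysozyme of macrophages, held 7.45, 10.8, 11.5, 10.1 and 10.2 CPM in MUT, against 67.3, 67.0, 56.2 and 54.3 CPM in WT (log2 fold change -2.61, SE 0.12, edgeR adjusted p = 1e-07). It shares 15.4% of its 50-base stretches with Lyz1, the Paneth cell lysozyme, which had 3374 MUT and 74733 WT reads, so some Lyz2 reads may come from that gene. Cybb, the catalytic subunit of the phagocyte NADPH oxidase, fell by 3.01 (SE 0.22).

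Ctss encodes cathepsin S, a protease that processes the invariant chain in antigen-presenting cells. It was the most abundant member per length, at 107.6 FPKM (CPM per kilobase of transcript) in MUT and 107.8 FPKM in WT. Its libraries held 161, 117.7, 118.8, 165 and 168 CPM in MUT, against 157, 150, 141 and 138 CPM in WT. MUT 2 and 3 lay below the WT range and the other MUT libraries above it, and the log2 fold change was 0.00 (SE 0.12, edgeR adjusted p = 0.99).

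**Figure D2:**
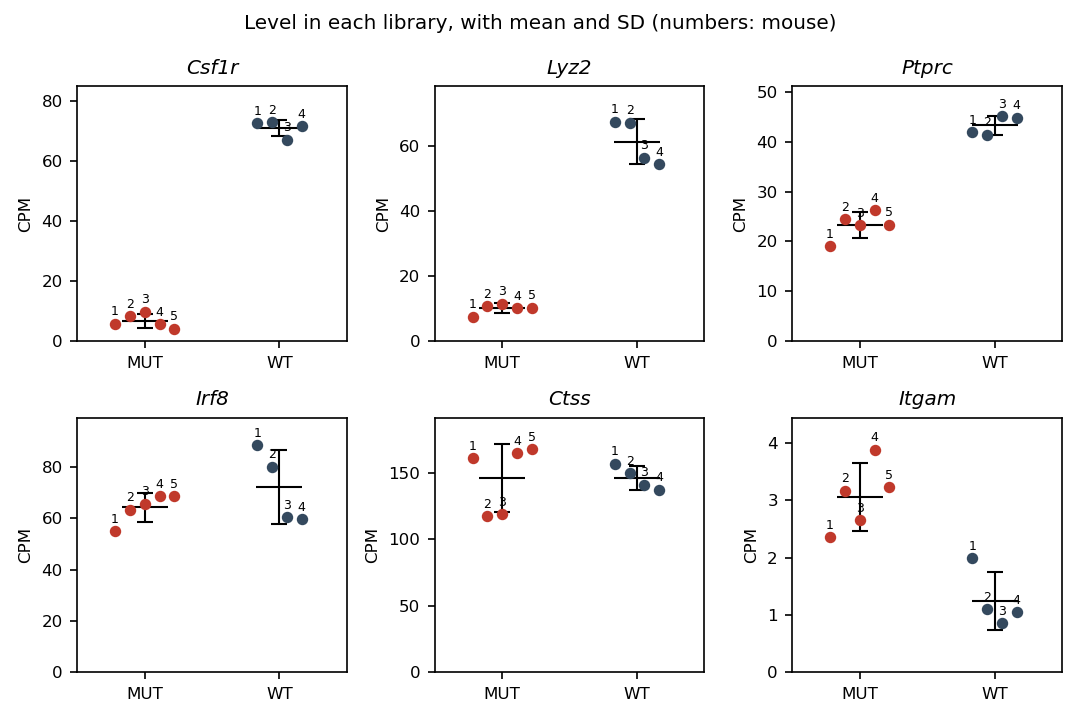
CPM of Csf1r, Lyz2, Ptprc, Irf8, Ctss and Itgam in each MUT (left) and WT (right) library, with 1 numbered point per mouse and bars for the mean and SD (n = 5 and 4). Csf1r, Lyz2 and Ptprc lie lower in MUT, Irf8 and Ctss overlap between the genotypes, and Itgam lies higher in MUT.

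Genes shared by most leukocytes fell less than Csf1r did. Ptprc (CD45) held 19.0, 24.5, 23.2, 26.2 and 23.4 CPM in MUT, against 42.0, 41.4, 45.1 and 44.9 CPM in WT, 1.86-fold lower on the mean (log2 fold change -0.90, SE 0.09, edgeR adjusted p = 3.4e-05). The lysosomal protein gene Laptm5 fell by 1.55 (SE 0.16), the actin regulators Coro1a and Lsp1 by 1.70 (SE 0.19) and 1.47 (SE 0.14), and the tetraspanin gene Cd53 by 2.09 (SE 0.20). Coro1a overlaps Bola2 on the other strand, which had 2009 MUT and 1085 WT reads.

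Itgam was the only member called higher. It encodes CD11b, an integrin of macrophages, granulocytes and some dendritic cells. Its level was 2.36, 3.17, 2.66, 3.89 and 3.23 CPM in MUT, against 1.996, 1.101, 0.864 and 1.05 CPM in WT, so that the groups did not overlap although MUT 1 and WT 1 came close. The log2 fold change was 1.26 (SE 0.28, edgeR adjusted p = 0.0051). Leaving out WT 3 and 4 ended the call (adjusted p = 0.063), as did the fit in limma with the close pair as a random block (0.12). Itgam shares 66.3% of its 50-base transcript stretches with the overlapping gene Gm49368, which was listed with 0 MUT and 6 WT reads. How the authors counted reads that match both is not given in the sources used here, so the Itgam count may hold only part of its reads.

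**Figure D3:**
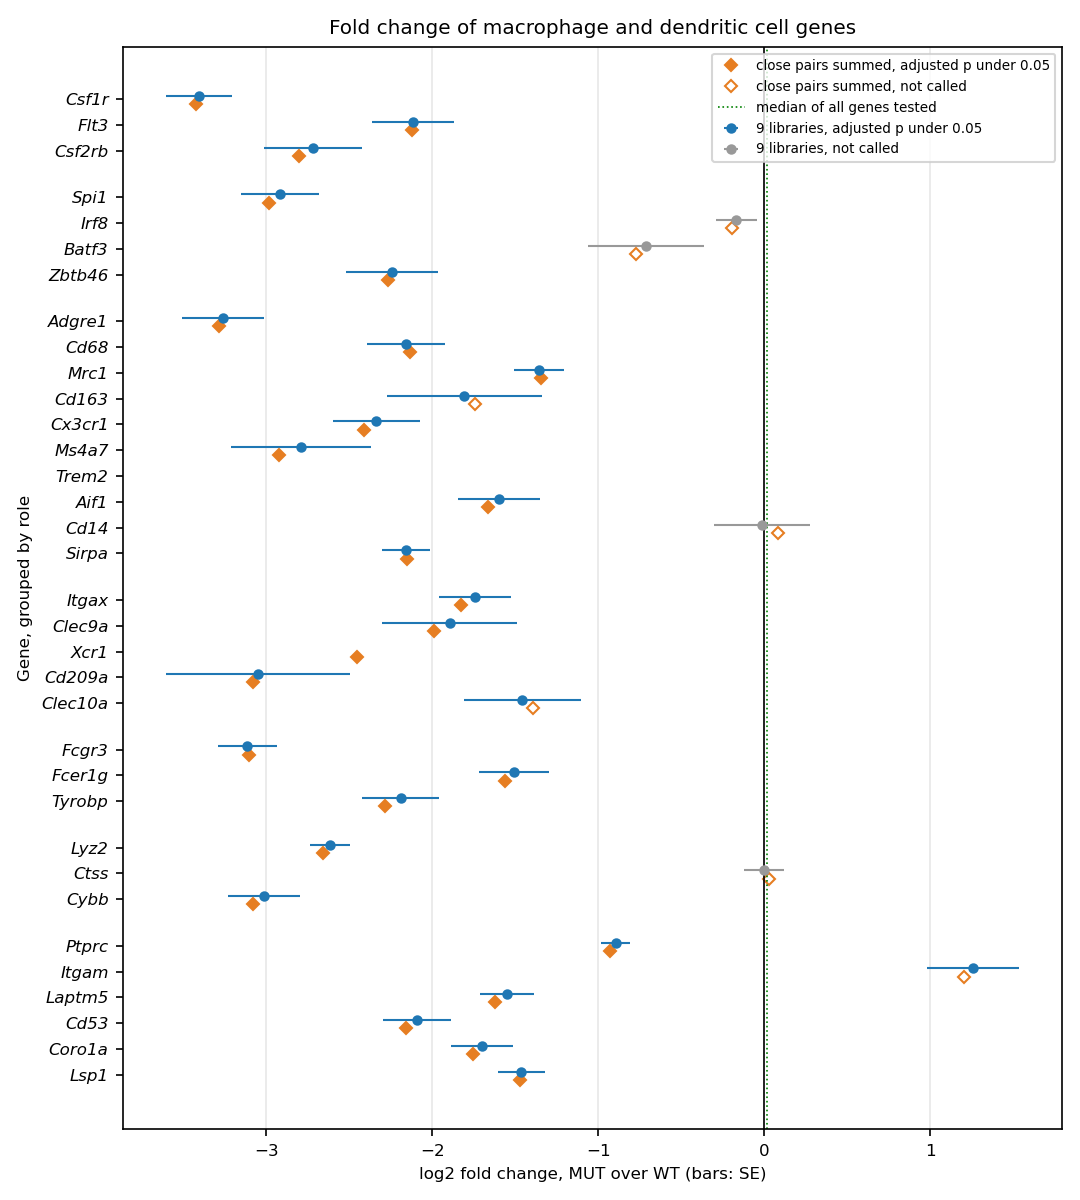
Log2 fold change, MUT over WT, of the 32 tested genes with SE bars (circles, 9 libraries) and of 33 genes with close pairs summed (diamonds, filled where called). Csf1r is lowest at -3.41, Irf8, Batf3, Cd14 and Ctss are without a call, and Itgam alone lies above 1.

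The members did not keep their proportions to each other. Csf1r had 0.173 to 0.417 reads per Ptprc read in MUT, against 1.49 to 1.76 in WT, and Lyz2 had 0.384 to 0.494, against 1.21 to 1.62. In the other direction, Irf8 had 2.59 to 2.94 reads per Ptprc read in MUT, against 1.33 to 2.11 in WT. Itgam had 0.115 to 0.148 in MUT, against 0.0192 to 0.0475 in WT. Set against Csf1r, some macrophage genes held closer to their WT proportion. Adgre1 had 0.098 to 0.177 reads per Csf1r read in MUT, against 0.0902 to 0.142 in WT, and Fcgr3 had 0.219 to 0.400, against 0.183 to 0.236. Mrc1 had 0.573 to 1.26 reads per Csf1r read in MUT, against 0.139 to 0.199 in WT. These ratios are descriptions without a test.

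The MUT libraries also differed among themselves. Relative to MUT 4 and 5, MUT 2 and 3 held more Csf1r, Csf2rb and Ms4a7 (log2 ratios of 0.88, 0.94 and 0.86) and more Cd163 (2.38). They held less Fcer1g, Cx3cr1 and Coro1a, with log2 ratios of -0.80, -0.66 and -0.61. T cell and intraepithelial lymphocyte genes summed to 104 and 111 CPM in MUT 2 and 3 and to 257 and 265 CPM in MUT 4 and 5. Fibroblast genes summed to 198 and 196 CPM in MUT 2 and 3 and to 75.1 and 76.6 CPM in MUT 4 and 5. The part of these cell types in the members' values was not tested.

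Cd53 and Ctss are the members whose promoters hold the letters GAGGAAGT, a motif typical of PU.1, on either strand. Both promoters are shown because the letters are the same while Cd53 fell and Ctss had no call. Sequences are from RefSeq on GRCm38.p6, 150 bases before to 30 after the annotated start, 5′ to 3′ on the gene's strand, with the motif, which lies on the opposite strand, in capitals.
Cd53, chr3:106790120-106790299, minus strand: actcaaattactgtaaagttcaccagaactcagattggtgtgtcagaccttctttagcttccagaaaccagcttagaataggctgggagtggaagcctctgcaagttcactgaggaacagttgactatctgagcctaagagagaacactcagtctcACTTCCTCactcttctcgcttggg
Ctss, chr3:95526636-95526815, plus strand: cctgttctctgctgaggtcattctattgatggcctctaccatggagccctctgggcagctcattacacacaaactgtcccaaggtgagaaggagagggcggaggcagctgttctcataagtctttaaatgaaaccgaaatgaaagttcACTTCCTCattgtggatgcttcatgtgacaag
Over the full windows of 250 bases before to 50 after a start, 25 members were matched, with 30 promoters. The motif was in 2 of these (6.67%), and in 1052 of all 32851 promoters (3.2%). Its shorter core GAGGAA, which the longer motif contains, was in 14 (46.7%) and in 28.3% of all. A match is a run of letters and says nothing of binding.

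Signals and partners of the members were mostly lower too. In several lists below, some lower genes also passed the filter with the help of WT, and their number is given where it is above 1. For every list, the shares over all genes tested were 17.1% lower and 15.4% higher, and 6.78% and 2.23% with close pairs summed. Of 5 tested myeloid growth factors, 4 fell, among them the CSF1R ligands Csf1, by 1.20 on the log2 scale (SE 0.17), and Il34, by 1.58 (SE 0.21). Tgfb1, which conditions intestinal macrophages, fell by 2.03 (SE 0.22) and Flt3l by 0.84 (SE 0.30, edgeR adjusted p = 0.049, and 0.21 with close pairs summed). Csf2, which encodes GM-CSF, had a log2 fold change of 0.88 (SE 0.32, adjusted p = 0.056). With close pairs summed, 3 of the list were lower.

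All 5 tested genes of monocyte recruitment were lower, 3 of them with close pairs summed, and 2 had passed the filter with the help of WT. They included Cxcl12 at -2.23 (SE 0.29) and its receptor Cxcr4 at -1.86 (SE 0.23). Ccr2, by which monocytes leave the marrow, was at -2.31 (SE 0.41), from 17 MUT and 78 WT reads. Ccl2, the main ligand of CCR2, had 4 MUT reads and 1 WT read. In the monocyte list 3 of 6 tested genes were lower (2 with close pairs summed, and 2 that passed with the help of WT) and 0 higher, with Ly6c2, the antigen of newly arrived monocytes, at -2.75 (SE 0.42).

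Products by which macrophages clear debris followed the same direction in part. Of 15 tested genes, 10 were lower and 2 higher, and 8 and 1 with close pairs summed. The 2 higher are near the share over all genes tested, 15.4%. The complement genes C1qb, C1qc and C1qa, which intestinal macrophages make, had log2 fold changes of -3.07 (SE 0.20), -2.69 (SE 0.23) and -2.32 (SE 0.24), all called. Apoe, a lipid carrier that many cells make, stood at 57.5 CPM in MUT and 431.3 CPM in WT on the mean, and it fell by 2.91 (SE 0.20). Il10rb, a receptor chain that epithelium also carries, rose by 0.61 (SE 0.10) and Gas6, a ligand of AXL and MERTK, by 0.48 (SE 0.15). Mertk itself had a log2 fold change of 0.01 (SE 0.11) and Marco had 0 reads in every library.

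Class II antigen presentation was lower throughout. All 11 tested genes fell (9 of them with close pairs summed, and 3 passed the filter with the help of WT), and their median was -2.15 on the log2 scale. Its 4 genes with the smallest p were H2-Ab1 at -2.26 (SE 0.09), H2-Aa at -2.59 (SE 0.13), H2-Eb1 at -2.32 (SE 0.15) and the invariant chain Cd74 at -2.92 (SE 0.19). The list summed to 132.6 to 216.7 CPM in MUT and 1078 to 1176 CPM in WT.

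Other lists of myeloid function were split, beside 17.1% of all genes tested called lower and 15.4% called higher. Among 18 genes that act downstream of receptors with immune tyrosine activation motifs, 9 fell and 5 rose (7 and 2 with close pairs summed). Syk, the kinase that binds those motifs, fell by 1.51 (SE 0.16), and Dock2, Sla and Pik3cd stood at -2.04 (SE 0.16), -2.54 (SE 0.21) and -1.30 (SE 0.15). Among those that rose were Vav1 by 1.03 (SE 0.14), Rac2 by 0.61 (SE 0.16), Ptpn6 by 0.43 (SE 0.14) and Plcg2 by 0.41 (SE 0.13).

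The oxidase and lysosomal protease list had 4 lower and 2 higher of 12 (4 and 0 with close pairs summed). The 2 higher are near the 15.4% of all genes tested, and the list's median was -0.03 on the log2 scale. Ncf1 and Ncf4, cytosolic subunits of the oxidase, fell by 1.97 (SE 0.24) and 1.90 (SE 0.24), and the proteases Ctsl and Lgmn by 1.08 (SE 0.07) and 0.89 (SE 0.09). Ctsd rose by 0.29 (SE 0.06), and Rac2, also in this list, is given above. Of 16 further transcription factors of myeloid cells, 7 were lower, 0 higher and 9 without a call (5 lower with close pairs summed). The lower ones with the smallest p were Runx3 at -2.47 (SE 0.19), Irf4 at -2.86 (SE 0.24), Ikzf1 at -2.11 (SE 0.25) and Irf5 at -1.58 (SE 0.19).

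**Figure D4:**
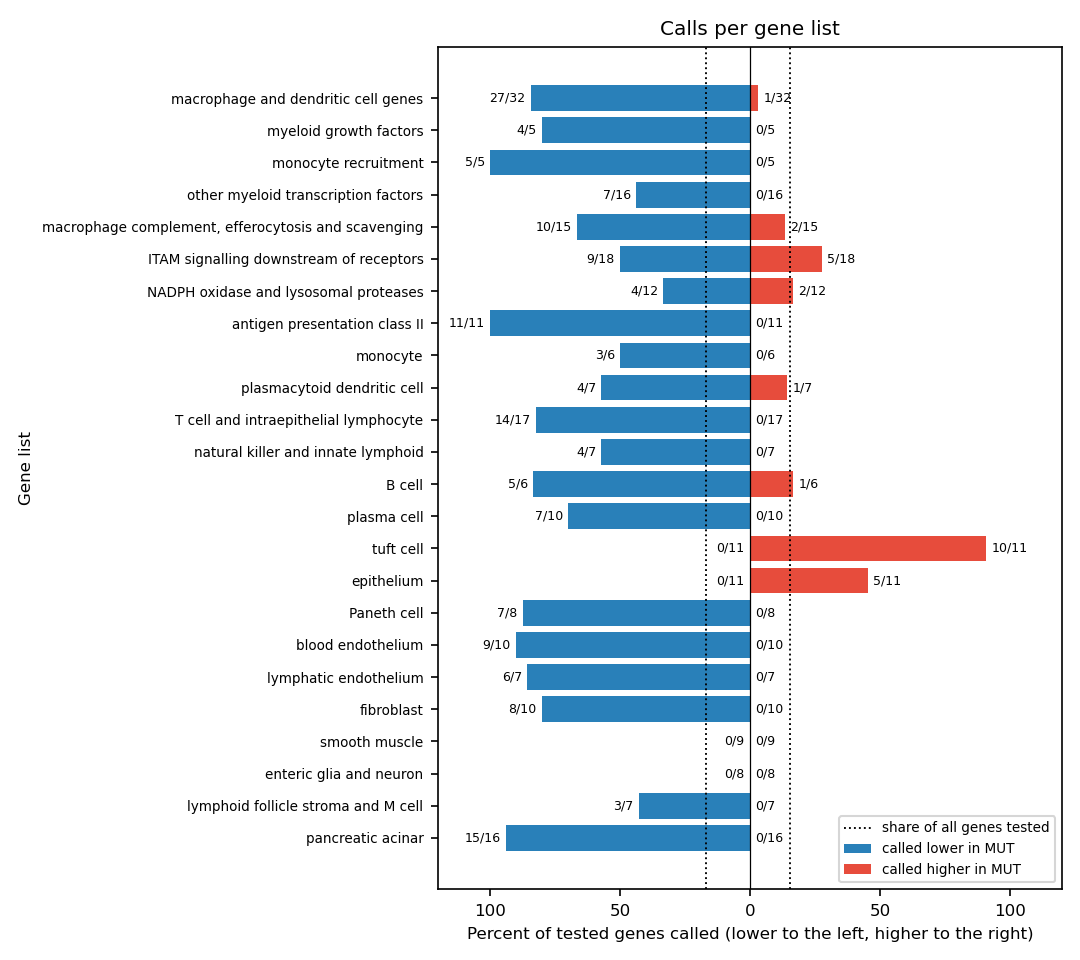
Percent of the tested genes of each list, for lists with at least 5 tested, called lower (left) or higher (right) in MUT by edgeR at an adjusted p under 0.05, with counts beside the bars and the shares of all genes, 17.1% and 15.4%, as dotted lines. The macrophage and dendritic cell genes, 27 of 32 lower, stand beside other leukocyte, endothelial and fibroblast lists that are also mostly lower, and the tuft cell list is mostly higher.

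Markers of other cell types moved in the same comparison, and their part in the members' values was not tested. T cell and intraepithelial lymphocyte genes were lower for 14 of 17 tested (8 with close pairs summed, and 3 that passed with the help of WT) and summed to 95.3 to 264.5 CPM in MUT and 348.5 to 382.2 CPM in WT. Their most significant genes were Cd4, also carried by some intestinal macrophages, at -3.49 (SE 0.26), Ccr9 at -1.95 (SE 0.22), Cd3e at -1.96 (SE 0.25) and Lat at -1.51 (SE 0.22). Natural killer and innate lymphoid genes were lower for 4 of 7 (1 with close pairs summed, and 2 that passed with the help of WT), and summed to 51.0 to 87.5 CPM in MUT and 83.8 to 90.3 CPM in WT. B cell genes were lower for 5 of 6 and higher for Spib (3 and 1 with close pairs summed), which tuft cells also express. The 3 lower calls left with close pairs summed were of genes that passed the filter with the help of WT, so they add no support. That list summed to 38.0 to 62.4 CPM in MUT and 29.3 to 36.5 CPM in WT, of which Spib made up a mean of 44.9 CPM in MUT and 12.4 CPM in WT. Plasma cell genes were lower for 7 of 10 (6 with close pairs summed), summing to 1778 to 4155 CPM in MUT and 8211 to 8718 CPM in WT.

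Granulocyte markers were scarce. Of the neutrophil list 2 of 9 genes were tested, both only because the WT libraries passed the filter, so their lower calls are no result about that list. S100a8, Ly6g, Mpo and Cxcr2 had 0 MUT reads and 6, 0, 1 and 15 WT reads. Of 9 eosinophil genes 2 were tested, and they went in opposite directions. Siglecf rose by 1.43 (SE 0.17) and Prg2 fell by 1.63 (SE 0.31, edgeR adjusted p = 0.055 with close pairs summed). Epx, Alox15 and Ccr3 had 0, 0 and 1 MUT reads and 4, 165 and 146 WT reads. Alox15 and Ccr3 did not pass the filter and were uneven in WT, with means of 2.08 (SD 1.65) and 1.76 CPM (SD 1.47). Whether the Siglecf reads come from eosinophils was not tested. No mast cell gene was called by edgeR of 3 tested, and 1 had an unadjusted p under 0.05. In the plasmacytoid list 4 of 7 were lower and Cox6a2 higher (3 and 1 with close pairs summed). Its defining gene Siglech fell by 1.19 (SE 0.34, edgeR adjusted p = 0.02) but had no call with close pairs summed (0.144). That list's sum, 43.6 to 61.0 CPM in MUT and 473.4 to 870.3 CPM in WT, was mostly Klk1, which the exocrine pancreas also makes.

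Stromal lists fell alongside. Blood endothelial genes were lower for 9 of 10 (8 with close pairs summed), summing to 36.9 to 95.7 CPM in MUT and 267.6 to 300.5 CPM in WT. Lymphatic endothelial genes were lower for 6 of 7 and fibroblast genes for 8 of 10 (2 in each list with close pairs summed). Of the 6 lymphatic genes, 2 passed with the help of WT. Their sums were 14.4 to 32.8 CPM and 75.1 to 197.6 CPM in MUT, against 48.2 to 64.5 CPM and 312.2 to 353.1 CPM in WT. No smooth muscle gene of 9, no enteric glia or neuron gene of 8 and no red blood cell gene of 2 tested was called by edgeR, and 1, 0 and 1 had an unadjusted p under 0.05. Paneth cell genes were lower for 7 of 8 (5 with close pairs summed), summing to 127 to 249.8 CPM in MUT and 1305 to 3563 CPM in WT.

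Epithelial and tuft cell lists went the other way. Epithelial genes were higher for 5 of 11 and lower for 0 (1 higher with close pairs summed), and summed to 14320 to 16400 CPM in MUT and 10310 to 13220 CPM in WT. Tuft cell genes were higher for 10 of 11 (10 with close pairs summed), with Sh2d6 at 1.95 (SE 0.16) and Avil at 1.79 (SE 0.17), and summed to 329.2 to 561.7 CPM in MUT and 149.2 to 180.4 CPM in WT.

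The pancreatic acinar list was lower for 15 of 16 genes (15 with close pairs summed), 11 of which passed the filter with the help of WT. Its sum was 39440 and 40180 CPM in WT 2 and 1 and 81760 and 82400 CPM in WT 4 and 3. Over the same libraries the 34 members summed to 754.6 and 768.4 CPM in WT 2 and 1 and to 658.0 and 677.2 CPM in WT 4 and 3. The part of acinar RNA in the members' values was not tested. In the list of lymphoid follicle stroma and M cells, 3 of 7 genes were lower (1 with close pairs summed), all 3 after passing with the help of WT, with Gp2, which acinar cells also make, at 9 MUT and 37312 WT reads and Cxcl13 at -1.71 (SE 0.32).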

How the data were processed

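The deposited values are unnormalized read counts for 9 libraries of poly(A)-selected duodenal RNA. The submitters' processing notes name HISAT2 2.0.5 and featureCounts 1.5.0-p3. The sources used here do not give the strand setting or the treatment of shared reads. Gene coordinates of 53499 of 54409 identifiers found in GENCODE M21 (GRCm38) were identical, as were those of 32 of the 34 members, so they are given as GRCm38.

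Counts were tested in R 4.3.3 with edgeR 4.0.16 (TMM, default expression filter, robust quasi-likelihood test, genotype as the only term), with Benjamini-Hochberg adjustment over 15416 genes. The SE was taken as the absolute log2 fold change over the root of the quasi-likelihood F. Alternatives used limma 3.58.1 and DESeq2 1.42.0. The fits were checked on simulated data in which all libraries were independent, so that check does not cover the close pairs. Replicates are the mice the labels number, so p-values measure the spread between these libraries, which may be partly technical. Counting floors (3 reads) are 0.122 to 0.191 CPM.

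Members, role groups, gene lists and the naming rule were chosen with earlier results of these data known. The rule names all members, up to 4 called genes per list by smallest p, and those against the list's majority. Some of these are given only in counts or are not reported here. Genes named outside it, chosen after their values were seen, are Csf2, Ccl2, C1qa, Mertk, Marco, Siglech, Epx, Alox15, Ccr3, S100a8, Ly6g, Mpo and Cxcr2. Per-library values were added for Ctss and Cd14.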

Additional observations from a re-analysis of the deposited data

Results flagged for a closer look

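Among 68 groups of libraries (34 members in each genotype), 2 held a library far from the others of its genotype, where chance gives about 1 in 20. Itgax stood at 1.85 CPM in MUT 1, with the nearest MUT library at 3.90 CPM. Fcer1g stood at 16.2 CPM in WT 3, with the nearest WT library at 14.5 CPM.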

How the results depend on the processing

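The log2 fold changes of the 32 tested members were recomputed under 24 alternatives. Of the 767 values, 737 kept direction and side of the threshold, 8 lost the call, 4 gained one and 18 changed sign. Leaving out 1 library gave 27 to 28 members lower, 1 higher, medians of -2.08 to -1.94 and 28 to 29 members without overlap below WT and 1 above. Over all genes it gave 2271 to 2609 lower and 1778 to 2280 higher. Except for MUT 1, each library left out kept its close partner in the fit, so these ranges test stability only weakly. The 767 values include these fits. With close pairs summed, 1173 genes were lower and 385 higher, and 0 members higher. With the pair as a random block in limma (correlation 0.715) these were 1644, 1172 and 0. Scaling to the epithelium list shifted the median of all genes to -0.34. It gave 5694 genes lower and 297 higher, a member median of -2.33 and 0 members above WT without overlap, and called Irf8 (-0.49), Batf3 (-1.08) and Ctss (-0.35) lower. Without WT 3 and 4, 1451 genes and 0 members were higher. Without MUT 2 and 3, or MUT 4 and 5, 2 members lay above WT without overlap. The causes of these moves were not tested.

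Sign changes were in members near 0. Ctss was at 0.00973 without a filter, 0.114 with quality weights, 0.0278 with pairs summed, 0.179 without MUT 2 and 3 and 0.067 without WT 1 and 2, and between -0.05704 and 0.06299 without 1 library. Cd14 was at 0.0913 with the mouse number as a block, 0.0799 with pairs summed, 0.36 without MUT 4 and 5 and 0.228 without WT 1 and 2, and between -0.1773 and 0.1382 without 1 library. Irf8 was at 0.0973 without WT 1 and 2.

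The mouse numbers do not pair the genotypes: same-numbered libraries deviated with correlations of 0.05, 0.15, -0.15 and 0.14, and only number 2 matched its own number best. With the mouse number as a replicate block, 27 members were lower and 1 higher (2222 and 1738 over all genes). At this depth Trem2, Xcr1, Cd209a and Clec9a rest on few reads.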
